A study of Mus musculus with 6 samples.

Results

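Glycogen metabolism genes were followed in sorted mouse embryo cells with and without stabilised β-catenin. The genes are the phosphorylases Pygl, Pygb and Pygm, the synthase Gys1, the branching enzyme Gbe1, glycogenin (Gyg), Ugp2, the phosphatase targeting subunit Ppp1r3c and the phosphorylase kinase subunit Phka1. All 9 were measured, by 18 probe sets that the platform annotation assigns to a single gene, out of 18193 genes and 34945 such probe sets. The probe sets were chosen by annotation, but the group of genes was selected on the mutant against wild-type difference of Pygl on these same arrays, which was known beforehand. The differences of the members are therefore given as a description.

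The mutant cells came from embryos carrying Isl1-cre, Rosa-YFP and Beta-catenin (loxP ex3), in which Cre removes exon 3 of Ctnnb1 and leaves a stable, active protein in the Isl1 lineage. They were compared with wild-type cells, whose full genotype the labels do not spell out beyond the YFP sort. Both groups were YFP+ cells sorted at embryonic day 9 from the Isl1-cre domain, which marks precardiac mesoderm, with 3 Affymetrix arrays each. How many embryos made up a sample, and whether they were pooled, is not given. The p-values therefore reflect only the scatter among these arrays.

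Glycogen is the branched glucose store of the cell, and fetal heart muscle is known to hold much of it. Ugp2 makes UDP-glucose, glycogenin primes the particle, glycogen synthase lengthens its chains and Gbe1 adds branches. Glycogen phosphorylase releases glucose-1-phosphate, which phosphoglucomutase converts to glucose-6-phosphate, the entry to glycolysis. Phosphorylase kinase switches phosphorylase on, and subunits of the Ppp1r3 family carry protein phosphatase 1 to glycogen, where it activates the synthase and switches phosphorylase off.

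Pygl and Ppp1r3c stood well above the wild-type level in the mutant cells, while the groups overlapped for the members that build glycogen, Ugp2, Gyg, Gys1 and Gbe1. Pygl rose 3.67-fold. Ppp1r3c stood 5.01-fold higher but varied widely among the mutant arrays and did not pass the test. Of the 9 genes, limma called 1 higher (Benjamini-Hochberg adjusted p under 0.05 over all genes) and 0 lower, and 8 did not pass. Over all genes 0.0660% were called higher and 0% lower. By unadjusted p under 0.05, 2 members were higher (6.76% of all genes) and 1 lower (4.84%). Mutant and wild-type arrays did not overlap for 3 members with higher values, against 8.64% of all genes, and for 1 with lower values, against 9.18%. Of the 3 higher ones, Phka1 had a gap of only 0.02, and its probe sets disagreed in sign. The members' median difference was 0.24 on the log2 scale, the value of Phka1, and the median over all genes was −0.03.

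**Figure D1:**
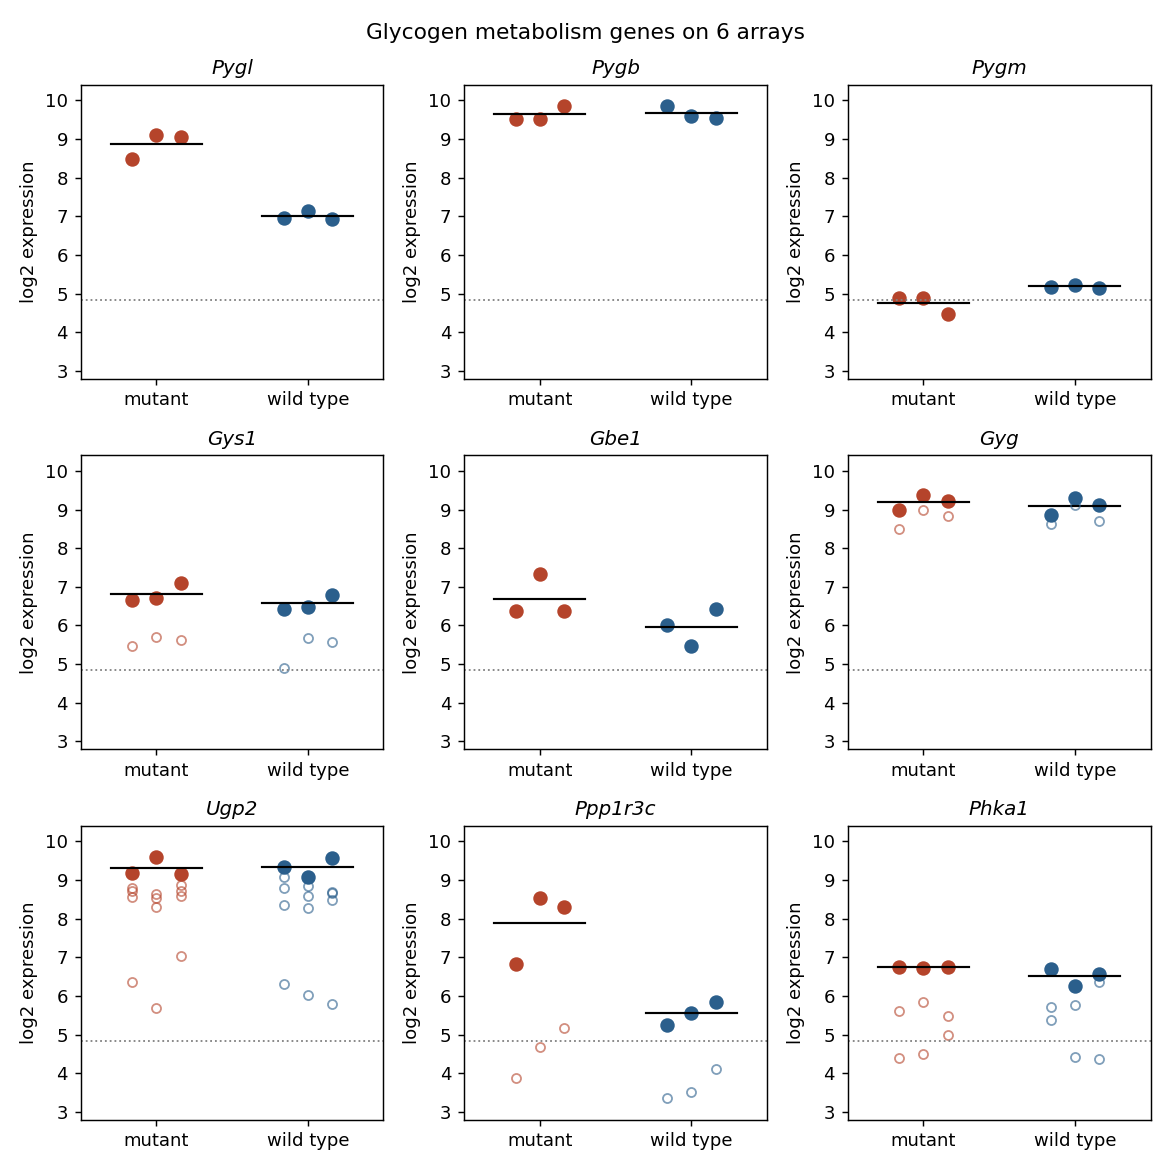
Log2 expression of the 9 genes on each array, mutant left of wild type. Filled points are the probe set with the highest mean, which stands for the gene, with its group mean as a line. Open points are the gene's other probe sets, and the dotted line is the rough background level, 4.85. The groups stand clearly apart for Pygl and Ppp1r3c.

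Across the array set, mutant array 1 lay between the groups on the first principal component (1.21, against 33.0 and 29.4 for the other mutant arrays and −21.6 to −20.5 for wild type), which held 36.4% of the variance. The signal of the Y-linked gene Kdm5d was 8.67 to 9.92 on the mutant arrays and 9.84 on wild-type array 1, but 2.82 and 3.52 on wild-type arrays 2 and 3. Xist, the RNA of the inactive X chromosome in female cells, read 12.13, 7.54 and 12.44 on mutant arrays 1, 2 and 3, against 5.46, 12.63 and 12.79 on wild-type arrays 1, 2 and 3. Both genes were thus high on mutant arrays 1 and 3, and no wild-type array had that pattern. The difference between 3′ and 5′ probe sets of Gapdh, a sign of RNA integrity, overlapped between groups, at 1.04 to 1.38 in mutant and 1.09 to 1.53 in wild-type arrays. Isl1, which marks the sorted lineage, was above background on every array, at 7.49 to 8.72 in mutant and 9.24 to 9.77 in wild-type cells. Ctnnb1 read 12.93 to 13.00 in mutant and 12.95 to 13.00 in wild-type cells, which does not check the genotype, since nothing used here says whether the probes lie in exon 3.

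Glycogen phosphorylase removes glucose units from chain ends, and its 3 isoforms are named for liver (Pygl), brain (Pygb) and muscle (Pygm). Pygl (probe set 1417741_at) read 8.49, 9.11 and 9.05 on mutant arrays 1, 2 and 3, against 6.95, 7.14 and 6.93 on wild-type arrays 1, 2 and 3. Every mutant array lay above every wild-type array, and 1.35 log2 units separated the lowest mutant from the highest wild-type value. The means were 8.88 ± 0.34 in mutant and 7.01 ± 0.12 in wild-type cells (log2, SD, n = 3 each). The difference was 1.88 (SE 0.19, 95% interval 1.44 to 2.31) and passed in limma (adjusted p = 0.0423). It ranked 6 among all 18193 genes by p and 29 by the size of the rise.

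That call lay close to the threshold. With every single-gene probe set tested separately in limma, the adjusted p of Pygl was 0.0530, and none of the 18 member probe sets was called, against 0.0229% of all probe sets called higher. At an unadjusted p under 0.05, 3 of the 18 stood higher (6.51% of all probe sets did) and 1 stood lower (4.91%). Without mutant array 1 the difference was 2.07 (limma adjusted p = 0.00970). Without wild-type array 1, 2 or 3 the limma adjusted p was 0.135, 0.134 and 0.162, and without mutant array 2 or 3 it was 0.152 and 0.179. The difference stayed between 1.76 and 2.07 throughout. The part of the differing Kdm5d and Xist levels in the Pygl values was not tested.

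Pygb, the brain isoform, read 9.51, 9.53 and 9.87 on the mutant arrays, against 9.86, 9.59 and 9.54 on the wild-type arrays. The groups overlapped almost fully, and the difference was −0.03 (95% interval −0.39 to 0.34; limma adjusted p = 0.958). Pygm, the muscle isoform, read 4.90, 4.88 and 4.48 in mutant and 5.18, 5.24 and 5.15 in wild-type cells. All of these values lie near the rough background of 4.85, taken from bacterial control probe sets. The mutant values lay below the wild-type ones, by −0.44 on average (SE 0.15, limma adjusted p = 0.347), and the mutant mean of 4.75 was under the background level. The level of the muscle isoform in mutant cells was thus hardly measured. Levels of different probe sets were not set against each other.

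**Figure D2:**
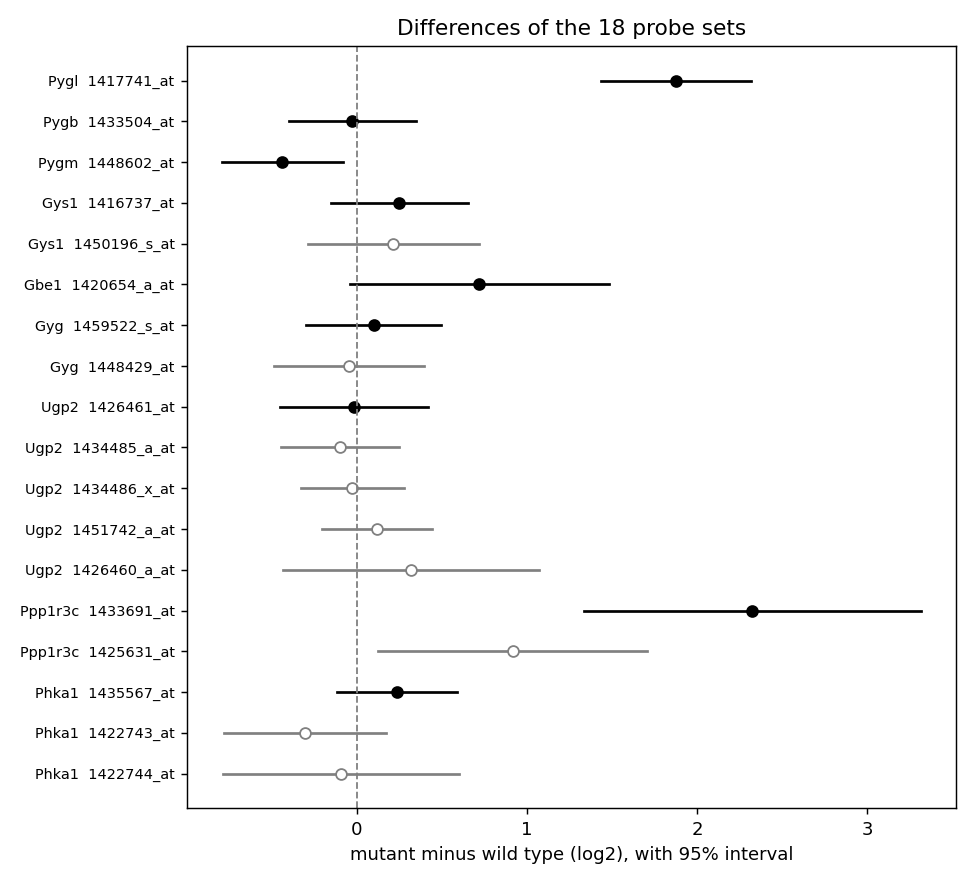
Mutant minus wild-type difference of each of the 18 member probe sets, log2, with its 95% interval from the fit over all single-gene probe sets. Black filled points stand for the gene and grey open points are its further probe sets. Pygl at 1.88 and Ppp1r3c at 2.32 and 0.92 lie right of 0 with intervals that do not reach it, Pygm at −0.44 lies left of it, and the intervals of the other 14 probe sets include 0.

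The other member that stood apart was Ppp1r3c, also known as protein targeting to glycogen, a scaffold that brings protein phosphatase 1 to the glycogen particle. Its brighter probe set, 1433691_at, read 6.82, 8.53 and 8.30 on mutant arrays 1, 2 and 3, against 5.26, 5.57 and 5.85 on wild-type arrays 1, 2 and 3. The groups did not overlap, with a gap of 0.97, but mutant array 1 lay well below the other mutant arrays. The means were 7.89 ± 0.93 in mutant and 5.56 ± 0.30 in wild-type cells (SD, n = 3 each), and the difference was 2.32 (SE 0.43, 95% interval 1.33 to 3.32). This ranked 16 of all genes by size and 95 by p, and it did not pass (limma adjusted p = 0.149). Without mutant array 1 the difference was 2.86 and passed (limma adjusted p = 0.01001). Leaving out any other single array, Ppp1r3c did not pass (limma adjusted p = 0.296 to 0.403).

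The dimmer Ppp1r3c probe set, 1425631_at, read 3.88, 4.69 and 5.17 in mutant and 3.36, 3.52 and 4.11 in wild-type cells. The means, 4.58 in mutant and 3.66 in wild-type cells, lie below the background level and the groups overlap. Its difference of 0.92 (limma adjusted p = 0.396 over probe sets) has the same sign, but it adds little about the size. With the mean of both probe sets standing for the gene, the difference was 1.62.

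The synthesis enzymes did not pass. Gys1, the non-hepatic glycogen synthase, read 6.65, 6.72 and 7.09 in mutant and 6.43, 6.49 and 6.79 in wild-type cells. The groups overlapped and the difference was 0.25 (95% interval −0.14 to 0.64; limma adjusted p = 0.587). A dimmer Gys1 probe set, 1450196_s_at, gave 0.21. Gbe1, the branching enzyme, read 6.38, 7.33 and 6.36 in mutant cells, against 6.0, 5.48 and 6.43 in wild-type cells. Mutant array 2 alone lay above all wild-type arrays, and wild-type array 3 exceeded the other mutant arrays. The Gbe1 difference of 0.72 (SE 0.33) did not pass (limma adjusted p = 0.454), and it was 0.40 without mutant array 2.

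Glycogenin, the self-glucosylating primer, was read by 2 probe sets whose differences were 0.10 and −0.05. The brighter Gyg probe set read 8.98, 9.39 and 9.21 in mutant and 8.86, 9.29 and 9.12 in wild-type cells. The groups overlapped, with a 95% interval of −0.29 to 0.49. Ugp2 had 5 probe sets, with differences from −0.10 to 0.32, all with overlapping groups. The brightest one read 9.18, 9.59 and 9.16 in mutant and 9.35, 9.07 and 9.57 in wild-type cells, a difference of −0.02 (95% interval −0.45 to 0.41). For Ugp2 and Gyg these intervals hold the difference within about 0.5 either way. For Gbe1 the interval, −0.04 to 1.48, leaves room for a large difference.

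Phka1, the muscle form of the regulatory α subunit of phosphorylase kinase, lies on the X chromosome and had 3 probe sets that disagreed in sign. The brightest, 1435567_at, read 6.76, 6.72 and 6.74 in mutant and 6.70, 6.25 and 6.56 in wild-type cells. The groups did not overlap, but only 0.02 separated them, and the difference of 0.24 did not pass (limma adjusted p = 0.559). The other Phka1 probe sets gave −0.30 and −0.09 with overlapping groups. No direction can be given for this gene.

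The rest of the pathway was described with 26 further measured genes. Of these 26, limma called 0 in either direction. By unadjusted p under 0.05, 5 were higher and 1 lower, against 6.76% and 4.84% of all genes. Groups did not overlap for 4 with higher and 3 with lower values, against 8.64% and 9.18% of all genes. Their median difference was 0.06, against −0.03 over all genes. G6pc, Gys2 and Ppp1r3a, which are known from liver and muscle, were at or below background on every array, Gys2 with mutant values below wild-type ones.

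Pgm1, the phosphoglucomutase that links glucose-1-phosphate to glucose-6-phosphate, had the smallest p of this list. It read 9.24, 9.97 and 9.79 in mutant cells, against 8.14, 8.24 and 8.61 in wild-type cells. Mutant values lay above all wild-type values, with means of 9.67 ± 0.38 in mutant and 8.33 ± 0.25 in wild-type cells (SD, n = 3 each). The Pgm1 difference was 1.34 (SE 0.22, limma adjusted p = 0.131), and a dimmer probe set gave 1.42 with groups that did not overlap either. Without mutant array 1 the Pgm1 difference was 1.55 and passed (limma adjusted p = 0.0377). Leaving out any other single array, Pgm1 did not pass (limma adjusted p = 0.221 to 0.357). The related phosphoglucomutase genes Pgm2 and Pgm2l1 stood at −0.14 and −0.41 with overlapping groups. Of the further Pgm2l1 probe sets, one stood at −0.70 with mutant values below all wild-type values (limma adjusted p = 0.379 over probe sets), and one at −0.11 with overlapping groups.

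Ppp1r3b, the glycogen targeting subunit best known from liver, read 7.62, 8.51 and 7.97 in mutant cells, against 6.09, 6.65 and 7.28 in wild-type cells. The groups did not overlap and differed by 1.36 (SE 0.33, limma adjusted p = 0.231). Among the other targeting subunits, Ppp1r3g stood at 0.60, Ppp1r3f at 0.22, Ppp1r3d at 0.12 and Ppp1r3e at −0.22, all with overlapping groups. The catalytic subunits of the phosphatase differed little, with Ppp1ca at −0.09, Ppp1cb at −0.02 and Ppp1cc at −0.15. Mutant values of Ppp1cc lay below wild-type ones by a gap of −0.02.

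The remaining genes of the list did not pass either. Stbd1, a starch-binding protein linked to lysosomal delivery of glycogen, read 6.41, 6.44 and 6.39 in mutant and 5.84, 6.27 and 5.59 in wild-type cells, a difference of 0.51 with no overlap. Gaa, the lysosomal α-glucosidase, had probe sets at 0.48, with overlapping groups, and 1.06, without overlap. Of the phosphorylase kinase subunits, Phkb stood at 0.14 with groups 0.01 apart. The X-linked Phka2 had probe sets from 0.10 to 0.66. The one at 0.66 had mutant values above all wild-type values (limma adjusted p = 0.216 over probe sets), and the groups overlapped for the others. Nhlrc1 (malin, a ubiquitin ligase that acts on glycogen proteins) stood at −0.45, with a mutant mean of 4.65 below background. Slc37a4, the transporter of glucose-6-phosphate into the endoplasmic reticulum, stood at 0.46, and the phosphatase gene G6pc3 at 0.06, both with overlapping groups. Gsk3b, a kinase that inhibits the synthase and also acts on β-catenin, stood at −0.15 with overlapping groups.

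**Figure D3:**
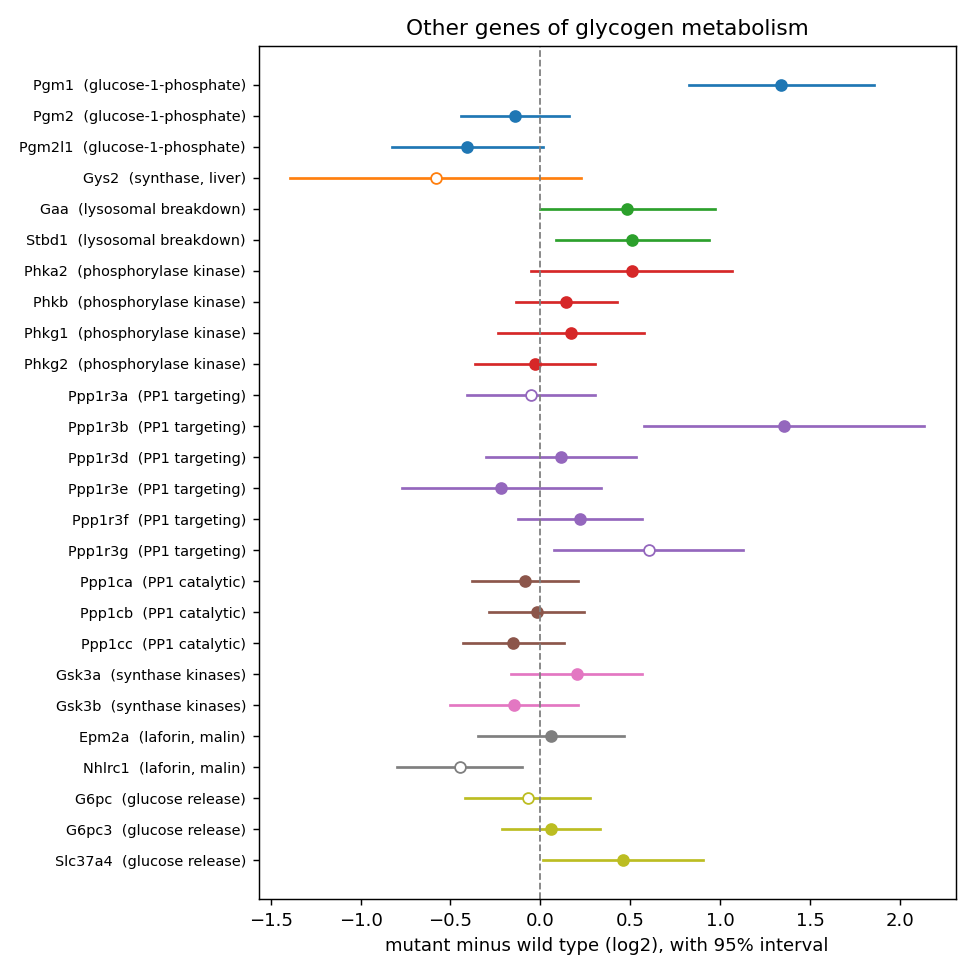
Mutant minus wild-type difference, log2 with 95% interval, for the 26 other measured genes, coloured by role. Filled points have both group means above background and open points do not. Pgm1 (1.34) and Ppp1r3b (1.36) lie furthest to the right.

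The genes that differed most shared a pattern across the mutant arrays. Relative to the wild-type mean, Ppp1r3c was at 1.26, 2.97 and 2.74 on mutant arrays 1, 2 and 3, and Pygl at 1.48 (the lowest of its mutant values), 2.10 and 2.05. Pgm1 was at 0.91, 1.64 and 1.47, and Ppp1r3b at 0.95, 1.83 and 1.29, so array 1 was lowest for each of these 4 genes. Mutant array 1 also lay between the groups on the first principal component over all genes. How many other genes were lowest on it was not counted, so the pattern is not shown to be particular to these 4. In bulk samples, fewer cells of a type and less RNA per cell cannot be told apart.

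A list of glycolysis and low oxygen genes stood higher alongside them. This list and the marker lists below were chosen with earlier results of these data known, so their counts are a description. All 20 measured members had higher values in mutant cells, 3 were called and 18 did not overlap. Over all genes, 8136 of 18193 had higher values, 0.0660% were called higher and 8.64% did not overlap in that direction. The list's mean stood at 0.84, 1.45 and 1.44 on the mutant arrays relative to the wild-type mean. Marker lists of some other cell types stood higher as well. Endothelial markers had higher values for 10 of 10, with array means of 8.24 to 8.69 in mutant and 7.18 to 7.97 in wild-type cells. Surface ectoderm markers were higher for 7 of 7 (9.12 to 10.05 in mutant, 8.34 to 8.93 in wild type), and neural crest markers for 4 of 6 (8.68 to 9.02 in mutant, 8.22 to 8.44 in wild type). Progenitor markers of the Isl1 lineage were higher for 4 of 8 and their array means were lower, at 6.99 to 7.30 in mutant and 7.35 to 7.40 in wild-type cells.

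None of the single markers in these 4 cell lists was called by limma, and none of the listed markers in them was at background on every array. By unadjusted p under 0.05, 7 endothelial, 3 surface ectoderm and 4 neural crest markers were higher and 3 progenitor markers lower. Over all genes, 6.76% were higher and 4.84% lower at that level. Of the counted markers, Nkx2-5 (progenitor, lower) had means of 4.36 in mutant and 4.82 in wild-type cells, both under the background of 4.85. Grhl3 (surface ectoderm, higher) had a wild-type mean of 4.43, also under background. The part of these cells, or of the low oxygen genes, in the values of Pygl and Ppp1r3c was not tested. Other lists had mostly lower values in mutant cells, with array means that overlapped between groups. Neuron markers were lower for 6 of 6 (2 without overlap) and primitive erythroid markers for 7 of 7 (0 without overlap). Leukocyte markers were lower for 5 of 6 (2 without overlap), cardiomyocyte markers for 8 of 10 (1 without overlap) and visceral endoderm markers for 6 of 8 (0 without overlap). Mutant values of the cardiomyocyte marker Nppa (1.16) and the visceral endoderm marker Cubn (0.79) lay above all wild-type values. Over all genes, 10057 of 18193 had lower values, and 9.18% did not overlap in the lower and 8.64% in the higher direction. Array means overlapped for visceral endoderm (5.34 to 7.23 in mutant, 5.76 to 7.94 in wild type), cardiomyocytes (9.31 to 9.58 in mutant, 9.24 to 10.04 in wild type) and primitive erythroid cells (9.88 to 11.13 in mutant, 10.43 to 10.97 in wild type). They also overlapped for neurons (8.02 to 9.36 in mutant, 9.18 to 9.94 in wild type) and leukocytes (5.03 to 5.85 in mutant, 5.49 to 6.01 in wild type), whose defining marker Ptprc was at background throughout. Relative to the wild-type mean, the visceral endoderm list was lowest on mutant array 1 (−1.73) and wild-type array 1 (−1.31). Its marker Afp read 2.60 and 4.08 on these arrays, against 9.46 to 11.52 on the others. The part of this in the glycogen gene values was not tested.

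**Figure D4:**
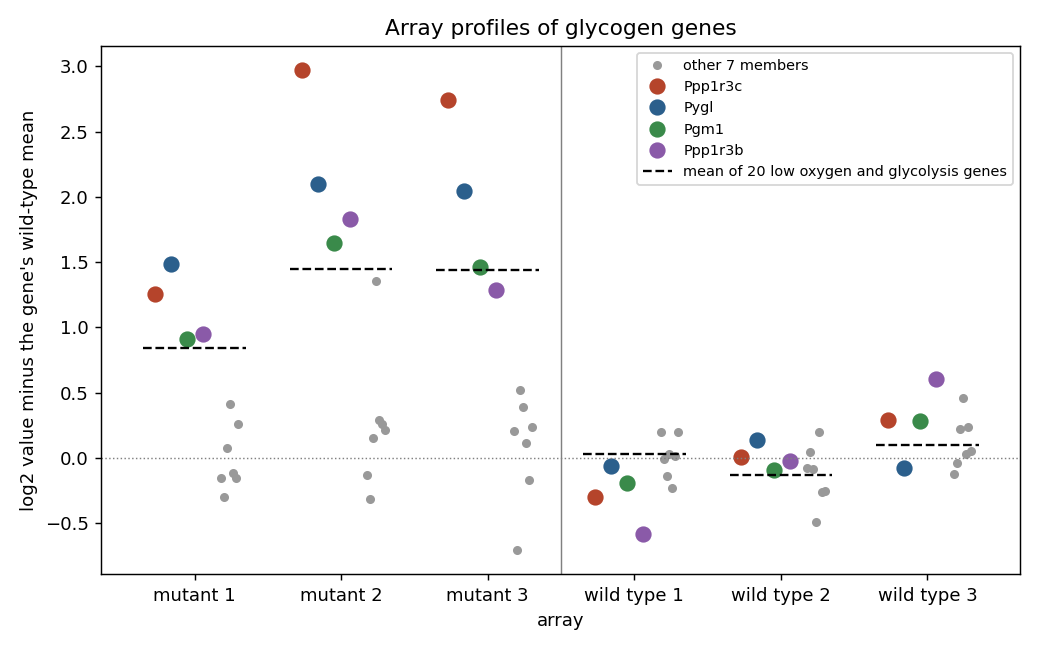
Log2 value minus the gene's own wild-type mean on each array, for Ppp1r3c, Pygl, Pgm1 and Ppp1r3b (large points), the other 7 members (small grey points), and the mean of 20 low oxygen and glycolysis genes (dashed bars). Each large point is lowest, among its mutant values, on mutant array 1.

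The genes with array profiles most like that of Pygl were ranked among the other 14125 genes whose mean exceeded background, by root mean square distance of log2 values after subtracting each gene's wild-type mean, over 6 arrays. The nearest was Adm, adrenomedullin, a secreted vasodilator peptide, at 0.12. Next came Apcdd1, a membrane inhibitor of Wnt signalling, at 0.16, Cav1 (caveolin) at 0.21, and Pde4b, a cAMP phosphodiesterase, at 0.21. The keratin gene Krt19 (0.22), Igfbp3 (0.28), Anxa2 (0.28) and the VEGF receptor gene Flt1 (0.29) completed the first 8. Pgm1 ranked 31, Ppp1r3c 55 and Ppp1r3b 74, while among the other members Gbe1 ranked 576 and Pygm 13234. Since the 8 nearest genes all stood higher on the mutant arrays, the group difference itself enters the likeness.

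Promoters are shown for Pygl, Ppp1r3c and Pgm1, and for Ugp2, which carried several of the same short motifs and hardly differed. No window was at hand for Ppp1r3b, which differed by 1.36, so its letters were not searched. Each is the 250 bases before a RefSeq start site (GRCm38.p6), 5′ to 3′ on the gene's strand. Ugp2 had a further start site, whose window (chr11:21370630-21370879) held none of the motifs searched. Capitals mark ACGTG and GCGTG, the core letters bound by hypoxia-inducible factors, and CTTTGAT, a core bound by TCF and LEF factors, the DNA-binding partners of β-catenin. Both strands were searched, so the reverse complement of each motif is in capitals too. Overlapping matches, as in a palindrome, count once per strand. CTTTGAT was chosen for the search after these sequences had been read.
Pygl, chr12:70227684-70227933, minus strand: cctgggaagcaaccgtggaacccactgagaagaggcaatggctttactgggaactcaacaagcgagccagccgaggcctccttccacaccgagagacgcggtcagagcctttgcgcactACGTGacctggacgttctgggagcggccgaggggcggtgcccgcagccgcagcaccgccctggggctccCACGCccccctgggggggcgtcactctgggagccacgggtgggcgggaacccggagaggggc
Ppp1r3c, chr19:36736605-36736854, minus strand: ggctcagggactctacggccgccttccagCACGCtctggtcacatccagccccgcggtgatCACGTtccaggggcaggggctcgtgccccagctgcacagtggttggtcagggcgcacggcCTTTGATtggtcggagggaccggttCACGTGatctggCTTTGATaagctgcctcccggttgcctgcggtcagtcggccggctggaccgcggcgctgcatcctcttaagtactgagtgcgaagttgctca
Pgm1, chr4:99929201-99929450, plus strand: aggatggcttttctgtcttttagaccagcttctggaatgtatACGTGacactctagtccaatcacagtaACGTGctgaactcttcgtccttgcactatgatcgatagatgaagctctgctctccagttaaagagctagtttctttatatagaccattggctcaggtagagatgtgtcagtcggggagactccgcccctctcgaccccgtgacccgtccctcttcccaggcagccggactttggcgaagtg
Ugp2, chr11:21371268-21371517, minus strand: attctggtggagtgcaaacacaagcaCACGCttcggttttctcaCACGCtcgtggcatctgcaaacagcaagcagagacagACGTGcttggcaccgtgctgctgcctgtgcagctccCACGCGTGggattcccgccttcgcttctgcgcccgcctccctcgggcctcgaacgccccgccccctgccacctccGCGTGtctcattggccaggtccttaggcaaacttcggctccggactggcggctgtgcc

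The Ppp1r3c window held ACGTG, as its reverse complement, 189 bases before the start site and within a palindrome that begins 104 bases before it. It also held CTTTGAT at 129 and 92 bases and GCGTG, as its reverse complement, at 221 bases before the start. The Pygl window held ACGTG at 131 bases and GCGTG, as its reverse complement, at 62 bases before the start. The Pgm1 window held ACGTG at 208 and 181 bases before the start.

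The letters ACGTG and GCGTG are common. ACGTG was found in 16.6% of 32851 promoter windows of the same length, GCGTG in 28.2% and CTTTGAT in 3.21%. Windows with CTTTGAT at 2 or more places made up 0.0822%, or 27 windows. Since CTTTGAT was chosen after the Ppp1r3c sequence had been read, its shares do not measure how unusual the matches there are. Among the 9 members, ACGTG was present for 5 (Pygl, Pygb, Pygm, Ugp2 and Ppp1r3c), GCGTG for 7 and CTTTGAT for Ppp1r3c alone. These counts are per gene, over all its start sites, while the shares above are per window. The counts were not tested against the shares. The differences of the 5 members with ACGTG were 1.88 (Pygl), −0.03 (Pygb), −0.44 (Pygm), −0.02 (Ugp2) and 2.32 (Ppp1r3c). Ugp2 held ACGTG at 1 of its start sites, and the Pygm values lay near background. Whether the letters bear on these differences was not tested. No capital letters occurred in the windows of Gys1 and Gbe1. A match describes the letters and is not evidence of binding.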

How the data were processed

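The deposited table holds log2 values of 45101 probe sets on each array. Its log2 scale was read from the values (1.89 to 15.07), while how the authors corrected, summarised and normalized the signals is not stated in the labels or the table. Per the labels' protocols, total RNA was extracted with Trizol, amplified with the WT-Ovation Pico system and labelled with biotin. Array medians lay between 6.47 and 6.50, so values were used without further scaling. No depth applies to arrays, whose number limits the precision.

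Probe sets were named by GEO's platform annotation, with symbols updated through the gene identifier (34741 of 34945 matched). The probe set with the highest mean stood for a gene. Mutant and wild type were compared over 18193 genes with limma 3.58.1 in R 4.3.3 (lmFit, eBayes, group only, two-sided, Benjamini-Hochberg, threshold 0.05), checked on simulated data. An exact permutation test of a single gene, 3 arrays against 3, cannot give a p below 0.1. The rough background, 4.85, was set at percentile 95 among mean values of 27 probe sets for bacterial genes.

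The members and lists were chosen with earlier results of these data known. The named genes are all members, up to 8 listed pathway genes with the smallest p whose groups did not overlap, Phkb and Gsk3b, and the 8 profiles nearest to that of Pygl. Other pathway genes were named, to complete their families, after their values were seen. Alternatives were a replicate block, quantile normalization, median centring, leaving out the dimmest 40% of genes, other probe set choices, array weights, a trended robust prior, omission of single arrays and a stricter threshold (0.01). Whether replicate numbers pair the samples is not known. Deviations of same-numbered arrays correlated at 0.11, −0.08 and −0.02 across genes, which cannot settle it with 3 arrays per group.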

Additional observations from a re-analysis of the deposited data

How the results depend on the processing

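The number of called genes (12 higher, 0 lower) and the call of Pygl rested on the setting, and the cause of each change was not tested. With the replicate block, 0 genes and 0 members were called (Pygl adjusted p = 0.0782 in limma). Only mutant array 1 correlated best with the wild-type array of its own number, which does not settle whether replicate numbers pair the samples. With the threshold at 0.01 both counts were 0. With the most variable probe set or with the mean of a gene's probe sets, 1 gene and 0 members were called, and with centred arrays 6 genes. Leaving out each array gave 0 to 81 higher and 0 to 11 lower genes, 0 to 2 members, 0 to 2 member probe sets and 0 to 1 of the other pathway genes. The highest counts all came without mutant array 1. The members' median difference was 0.0581 with the mean of a gene's probe sets and 0.12 to 0.27 leaving out each array, and that of the low oxygen list 0.87 to 1.32. Pygl stayed between 1.76 and 2.07 and Ppp1r3c between 1.62 and 2.86 in 15 alternatives. Signs turned for members near 0. Pygb was 0.0343 with array weights and −0.143 to 0.0721 leaving out each array. Gyg was −0.0457 with the most variable probe set and −0.0172 to 0.205 leaving out each array. Ugp2 was 0.32 with the most variable probe set, 0.0581 with the mean of its probe sets and −0.159 to 0.10 leaving out each array. Phka1 was −0.0935 with the most variable probe set and −0.0530 with the mean of its probe sets. Probe sets near background, as for Pygm and the dimmer one of Ppp1r3c, limit what can be read from them.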
